A study of Homo sapiens with 12 samples.

Results

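The genes described here encode the 8 subunits of TRiC, the cytosolic chaperonin (also called CCT): TCP1, CCT2, CCT3, CCT4, CCT5, CCT6A, CCT7 and CCT8. They were taken as the members of 1 complex, out of 20052 protein-coding genes with a span in the RefSeq table (GRCh38). This choice was made with earlier results of these data known, so counts set beside all genes are description only. A peak or summit was counted for a subunit when it lay wholly inside that span. By this rule the subunits held 7 of the 9585 peaks of one deposited list, MetDiff, and 10 of the 3705 summits of the other, MACS2.

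The study looked for mRNAs that carry 1-methylguanosine (m1G) in PANC-1, an established human pancreatic ductal adenocarcinoma cell line. Polyadenylated RNA was fragmented and sequenced either as input or after precipitation with an m1G antibody (m1G IP), in a wild-type control and after 4 days of TRMT5 knockdown by siRNA transfection. TRMT5 is the enzyme that places m1G beside the anticodon of tRNAs. The 4 groups were input control, m1G IP control, input knockdown and m1G IP knockdown, with 3 libraries each, all of the second experiment and all from this single cell line. The labels do not say what the control cells were transfected with. The protocol also names a GFP antibody, and a library made with it was not analysed here.

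Both lists were deposited for the series as a whole, without a statement of which libraries entered them. They hold no value for a single library and no column labelled as knockdown against control, so no spread between replicates could be computed and no test was run on any value below. Every fold, false discovery rate (FDR) and −log10 q is the authors' own value for that peak or summit, used to describe and rank within its list. The table has no header, and the position of its last column led to that column being taken as the fold of IP over input. It was under 1 in 0 of the 9585 peaks, with a minimum of 1.0. A ratio of knockdown to control could fall on either side of 1, but a list kept to 1 direction would show the same floor. This minimum therefore cannot tell the contrasts apart. No header states the contrast, and under another one each fold below would have another meaning. The read depth behind the values is unknown. Over all protein-coding genes, 21.3% held a MetDiff peak and 9.4% a summit. Of 7 ductal epithelial marker genes, 4 had a MetDiff peak (KRT8, KRT18, KRT19 and SOX9), with summits in KRT8, KRT18 and SOX9. The spans of KRT8 and KRT18 overlap, so these 2 genes share rows. The ductal markers KRT7, EPCAM and MUC1 had neither, and 0 of 10 markers of acinar, islet, immune and fibroblast cells had a peak or a summit. With so few genes and those shares over all genes, the counts do not settle the cell type.

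TRiC is a barrel of 2 stacked rings, each built from 1 copy of all 8 subunits, which are paralogs of each other. It binds unfolded proteins in its cavity and releases them after ATP hydrolysis closes the lid. Actins and tubulins are its best known clients, and prefoldin hands many of them over. CCT2, CCT4, CCT5 and TCP1 lie on the side of the ring that binds ATP with high affinity, and CCT3, CCT6A, CCT7 and CCT8 on the low-affinity side. The products of these genes are therefore used in equal number.

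Of the 8 subunits, 6 had a MetDiff peak and 5 a MACS2 summit. By the same rule a MetDiff peak lay in 21.3% of all protein-coding genes and a summit in 9.4%. This background includes genes that PANC-1 cells do not express, and the subunits were chosen with earlier results of these data known. TCP1, CCT4, CCT5, CCT6A and CCT7 had both, against 8.07% of protein-coding genes. Among genes with a MetDiff peak, 37.9% also had a summit, and 5 of the 6 subunits with a peak did. CCT2 had a peak and no summit. CCT3 and CCT8 had neither. On the high-affinity side 4 of 4 subunits had a peak and 3 a summit, and on the low-affinity side 2 of 4 had a peak and 2 a summit. Whether the sides differ was not tested.

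**Figure D1:**
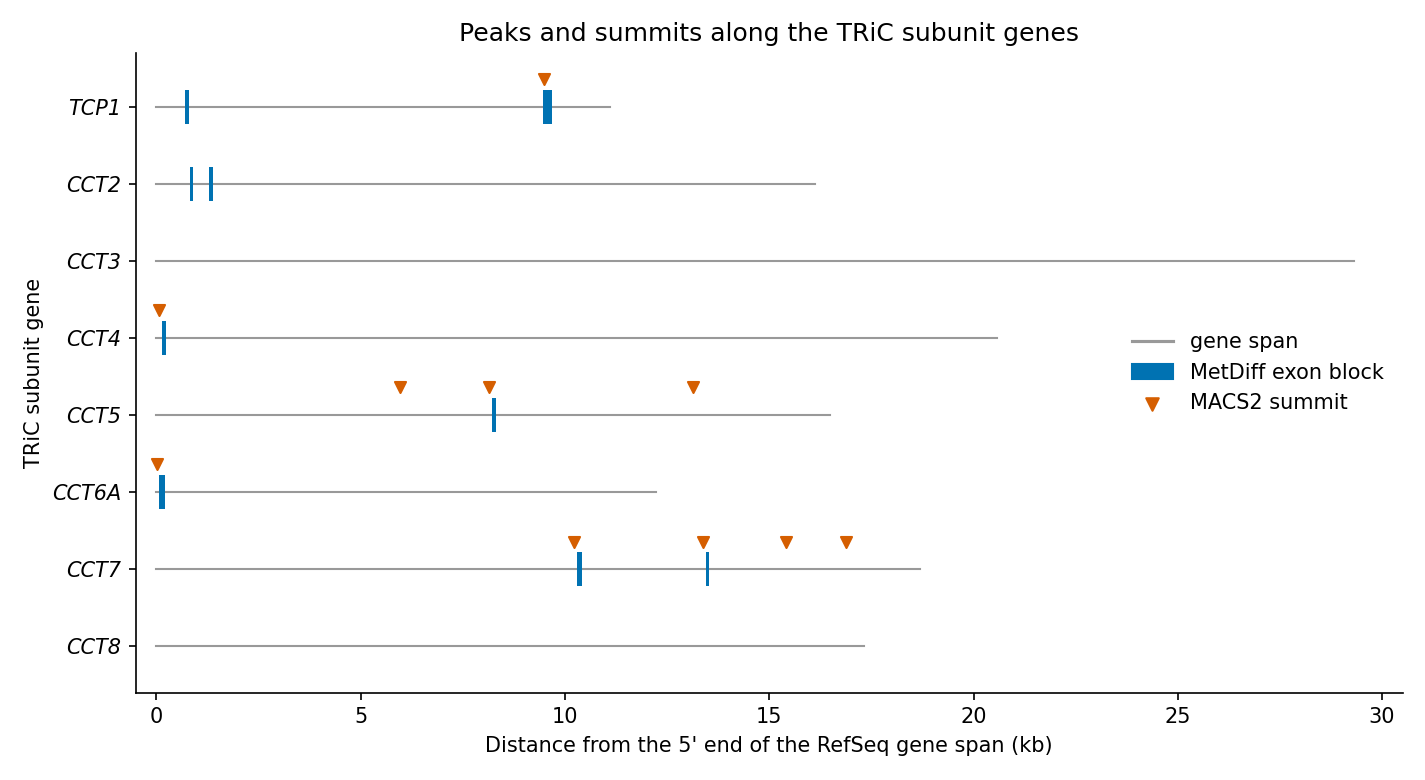
Each grey line is the RefSeq span of 1 TRiC subunit gene, drawn to scale in kb from its 5′ end; blue boxes are the exon blocks of MetDiff peaks and orange triangles are MACS2 summits. TCP1 carries a block and a summit near its 3′ end, CCT4 and CCT6A carry theirs at the 5′ end, CCT5 and CCT7 hold 3 and 4 summits, and CCT3 and CCT8 are empty.

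The folds of the 7 peaks ran from 1.98 in CCT4 to 30.8 in TCP1, a ratio of 15.6 between 2 subunits of one complex. The median was 3.12, against 4.5 over all 9585 peaks. Of the 7 peaks, 3 lay above that list median, where 49.6% of all peaks lie above it. With TCP1 set aside, the other subunits had folds of 5.41 (CCT6A), 4.82 (CCT2), 2.81 (CCT5), 2.71 (CCT7) and 1.98 (CCT4). No errors accompany the folds, so the order of these 5 neighbours cannot be held against a spread.

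**Figure D2:**
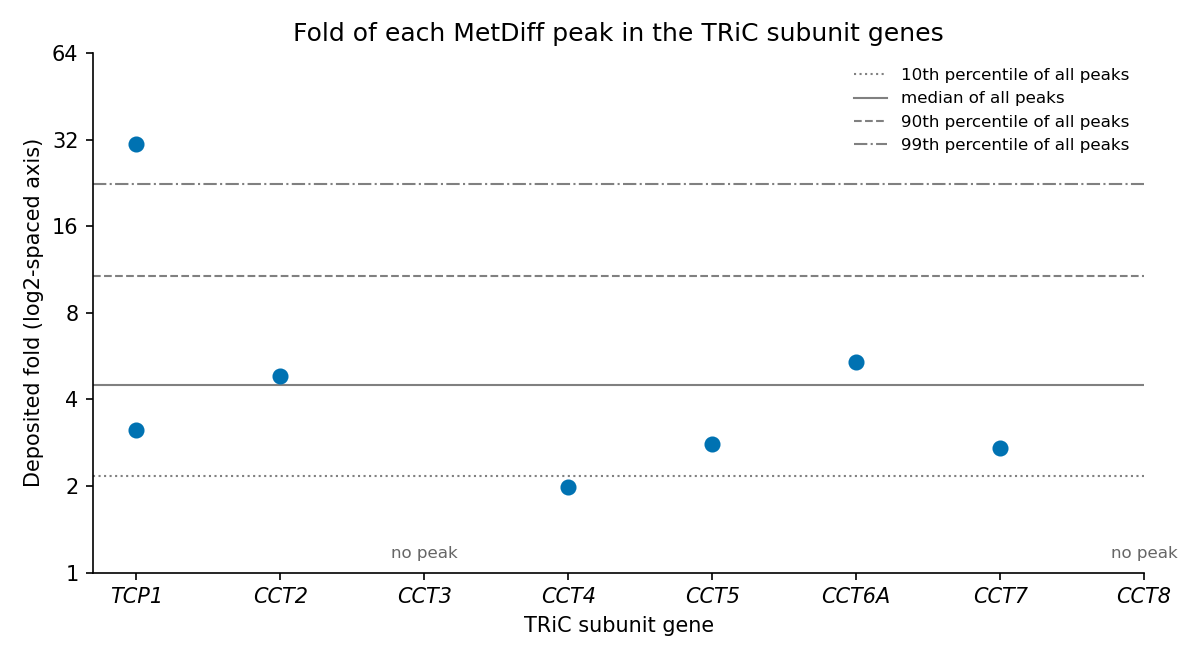
Points are the deposited folds of single MetDiff peaks, by subunit, on a log2-spaced axis; horizontal lines give the 10th, 50th, 90th and 99th percentiles of all 9585 peaks. The TCP1 peak at 30.8 lies above the 99th percentile (22.5), the CCT4 peak at 1.98 below the 10th (2.17), and the other 5 peaks between 2.71 and 5.41.

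TCP1 encodes the alpha subunit, after which the complex was named. Its gene (ENSG00000120438, minus strand) spans chr6:159778498-159789602. The stronger of its 2 peaks covered 201 bases in a single exon block, from 159779928 to 159780128, at fold 30.8 and FDR 7.94e-09. Only 34 of 9585 peaks (0.355%) had a fold at least as high, itself included. Among the 4515 gene IDs of the list, 34 (0.753%) had a best fold at least as high. The block lay 1430 bases from the 3′ end of the span. It lay outside the 615 bases that TCP1 shares with the 3′ end of ACAT2, an acetyl-CoA acetyltransferase gene, which ends at 159779112. SNORA20, an H/ACA small nucleolar RNA gene in the same span, begins 122 bases beyond the block, at 159780250. The span of SNORA29 also overlaps that of TCP1. SNORA29 overlaps neither TCP1 peak, and its distance to the block was not computed.

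The single TCP1 summit lay inside this block, at 159780119, and had a −log10 q of 41.6, a value reached by 6.48% of all summits. It was 9 bases from the block's 5′ edge. The second TCP1 peak, 101 bases from 159788804 to 159788904, lay 698 bases from the 5′ end at fold 3.12 and FDR 1.38e-04. No summit lay near it, the closest being 8685 bases away. TCP1 thus appeared in both lists at its 3′ part and in the MetDiff list alone at its 5′ part.

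CCT2, the beta subunit (ENSG00000166226, plus strand), spans chr12:69585459-69601570. Its peak ran from 69586275 to 69586832 in 2 exon blocks of 70 and 80 bases that are 408 bases apart, and it began 816 bases from the 5′ end. Its fold was 4.82, near the list median, with 46.1% of peaks at least as high. Its FDR of 3.98e-12 was the lowest of the 7 and was matched or passed by 106 peaks (1.11%). CCT2 had no summit, and the nearest one on chromosome 12 lay 5181636 bases from the peak. The subunit with the lowest FDR in one list was therefore absent from the other.

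CCT4, the delta subunit (ENSG00000115484, minus strand), spans chr2:61868085-61888671. It had the lowest fold, 1.98, which 93.1% of all peaks reached, with an FDR of 2.04e-04. The block of 99 bases, from 61888426 to 61888524, lay 147 bases from the 5′ end. The CCT4 summit lay at 61888599, 72 bases from the 5′ end, with a −log10 q of 22.4 (reached by 23.7% of summits). Both positions fall in the 281 bases that CCT4 shares with COMMD1, a copper metabolism gene whose span begins at 61888391. The MetDiff row names the CCT4 side by its ID and strand, while the summit carries no strand, so the gene of the summit is uncertain.

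CCT5, the epsilon subunit (ENSG00000150753, plus strand), spans chr5:10249921-10266412. Its peak covered 100 bases from 10258132 to 10258231, at 50.1% of the span's length, at fold 2.81 and FDR 3.31e-07. A fold at least as high was found in 78.0% of peaks, and an FDR at least as low in 10.6%. CCT5 held 3 summits. The strongest, with the highest −log10 q of all 10, 51.7 (reached by 3.67% of summits), lay at 10263048, which is 4817 bases past the peak. The next, 45.6, lay at 10258071, 61 bases from the peak on its 5′ side. The weakest, 20.1, lay at 10255892 and was 2240 bases from the block. The CCT5 summits thus stretch over 7156 bases, and 1 of the 3 stood beside a MetDiff block.

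CCT6A, the zeta subunit (ENSG00000146731, plus strand), spans chr7:56051765-56063989. Its block of 151 bases, from 56051835 to 56051985, lay 70 bases from the 5′ end, with the second highest fold of the set, 5.41 (reached by 39.1% of peaks), and the highest FDR, 0.00123. The summit at 56051790 lay 25 bases from the 5′ end with a −log10 q of 33.0 (reached by 11.5%). CCT6A also hosts SNORA22B and SNORA15 further along its span, and neither list placed a position in that part. CCT6A has transcribed pseudogenes, CCT6P1 and CCT6P3, whose reads may not be separable from its own. Neither held a peak or summit, nor did any other of the 18 pseudogenes of the subunits in the RefSeq table. The matching share over all pseudogenes was not computed, so these empty spans do not show where the reads belong.

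CCT7, the eta subunit (ENSG00000135624, plus strand), spans chr2:73234308-73253005. Its peak, from 73244593 to 73247838, joined exon blocks of 123 and 77 bases across a gap of 3046 bases, with a fold of 2.71 (reached by 80.1% of peaks) and an FDR of 2.95e-05. CCT7 held 4 summits, the most of the set, with −log10 q of 17.1 at 73244517, 17.3 at 73247689, 17.0 at 73249728 and 14.2 at 73251196. These 4 values are close together and just above the list median of 13.7. The first lay 76 bases before the first block. The next lay 73 bases before the second block and so in the gap between both blocks. The last 2 lay 1890 and 3358 bases past the peak, in the 3′ part of the gene.

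CCT3, the gamma subunit (chr1:156308968-156338292, minus strand), and CCT8, the theta subunit (chr21:29056326-29073648, minus strand), had 0 peaks and 0 summits. CCT3 has the longest span of the 8, 29325 bases, and CCT8 one of 17323 bases. TSACC shares 979 bases with the 5′ end of CCT3, and this stretch was empty too. How strongly either mRNA was expressed was not measured in these lists. A gene without a row may have been below the callers' limits at a depth that is unknown, so no absence of m1G can be read from it.

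Fold and FDR ranked the peaks differently. By FDR the order was CCT2 (3.98e-12), the 3′ peak of TCP1 (7.94e-09), CCT5 (3.31e-07), CCT7 (2.95e-05), the 5′ peak of TCP1 (1.38e-04), CCT4 (2.04e-04) and CCT6A (0.00123). CCT6A, next after TCP1 by fold, was last by FDR, and CCT5, among the lowest by fold, came ahead of it. The median −log10 FDR of the 7 peaks was 4.53, against 3.62 over the list. All 7 peaks had an FDR under 0.01, as did most of the list, whose 10th percentile of −log10 FDR was 2.1.

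**Figure D3:**
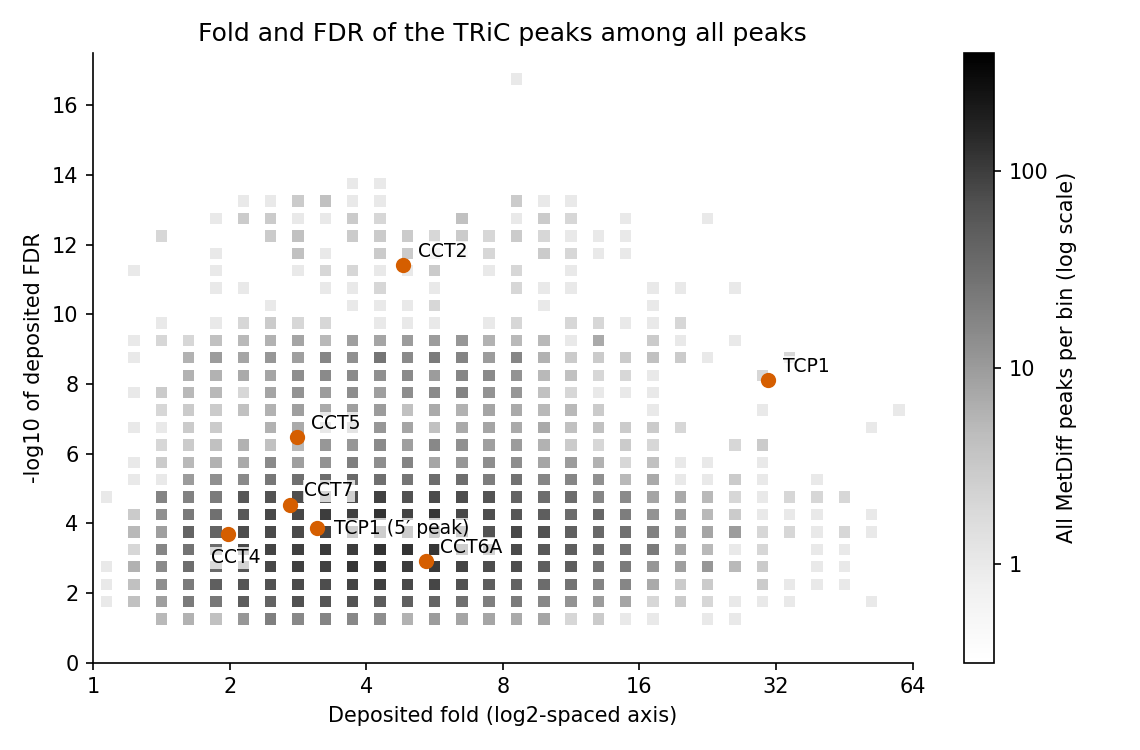
Orange points are the 7 TRiC peaks, by deposited fold (log2-spaced axis) and −log10 of the deposited FDR; grey squares count all 9585 MetDiff peaks per bin, darker for more. TCP1 stands far to the right at a fold of 30.8, CCT2 near the top at a −log10 FDR of 11.4, and the other 5 peaks lie at folds of 1.98 to 5.41 in the populated part of the list.

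By significance the medians of the subunits lay above those of both lists, with a −log10 FDR of 4.53 against 3.62 for MetDiff peaks. Fold is another measure, and the median fold of those peaks lay below that of its list. All 10 summits lay above the MACS2 list's median −log10 q of 13.7, and their own median was 21.2. This value measures significance, which rises with the number of reads, and the expression of the genes is not known here. By their strongest summit the subunits ran CCT5 (51.7), TCP1 (41.6), CCT6A (33.0), CCT4 (22.4) and CCT7 (17.3). CCT5 led here with a fold of 2.81, and CCT7 came last with the most summits. Number of summits and strength of the best summit thus followed different orders across the subunits.

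Along the gene spans, introns included, the 7 peaks fell into 3 kinds of place. The matching shares over all MetDiff peaks were not computed. The 5′ peaks of TCP1, CCT2, CCT4 and CCT6A began within 816 bases of the 5′ end of the span. The peaks of CCT5 and CCT7 lay at 50.1% and 63.7% of the span, and the strong TCP1 peak at 86.2%. Peaks in 2 exon blocks, CCT2 and CCT7, made up 2 of 7, and 33.4% of all MetDiff peaks had several blocks. The 6 subunits with a peak were covered over 99 to 302 exonic bases each and 1002 in all. Their median of 150.5 bases was below the median of 202 over all gene IDs. Of the 6, 5 had exactly 1 peak, as did 49.3% of gene IDs.

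Most TRiC summits with a block nearby stood beside it and not on the same bases. Of the 10 summits, 6 lay within 150 bases of a MetDiff block of the same gene. Over the whole list 63.6% of summits lay that near a block, so this share shows nothing particular to the subunits. Of these 6 TRiC summits, 1 (TCP1) lay inside the block. Over the whole list, 27.8% of summits within that distance lay inside a block. The other 5 were 45 (CCT6A), 61 (CCT5), 73 and 76 (CCT7) and 75 bases (CCT4) away. All 5 lay on the 5′ side of the block in the direction of the gene, on the plus strand in CCT5, CCT6A and CCT7 and on the minus strand in CCT4. The whole list showed the same side in 89.9% of the 1703 summits so placed (1531 on the 5′ side and 172 on the 3′ side), so the 5 of 5 lies near the share of the list and shows nothing particular to the subunits. The remaining 4 summits, in CCT5 and CCT7, were 1890 to 4817 bases from any block.

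**Figure D4:**
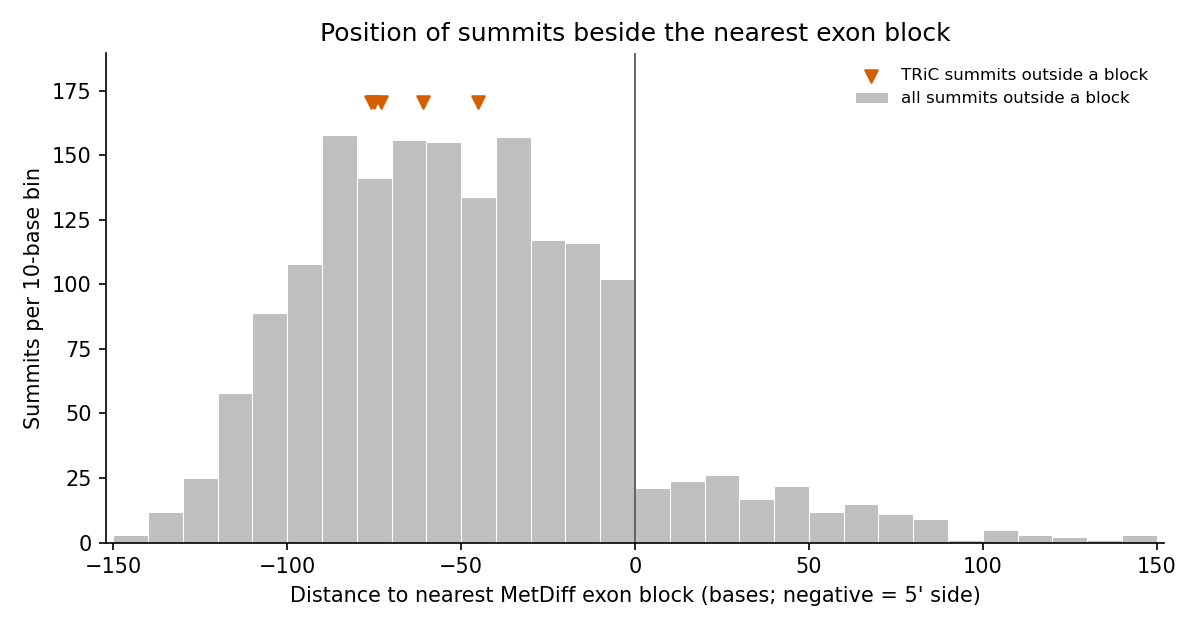
Grey bars count all 1703 summits that lie outside but within 150 bases of a MetDiff exon block, by signed distance in 10-base bins, negative on the 5′ side in the direction of the gene; orange triangles mark the 5 TRiC summits among them. The TRiC summits lie between −76 and −45 bases, on the same side as 89.9% of the list.

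Genes that work with TRiC were described in the same way, in lists also chosen with earlier results of these data known. Among 10 cochaperones, PFDN1, a prefoldin subunit, had a peak at fold 11.0 (FDR 8.32e-05) and PDCL, a phosducin-like protein, had one with 4.0. The other prefoldin genes, PFDN2, VBP1, PFDN4, PFDN5 and PFDN6, had no peak, and 0 of the 10 had a summit. That is 20.0% with a peak, close to the background of 21.3%, and 0.0% with a summit, beside 9.4% of all protein-coding genes. With only 10 genes, neither share shows anything particular to the cochaperones. Among 7 relatives of the chaperonin, HSPD1, the mitochondrial chaperonin, had 3 summits up to 31.5 and a peak whose fold was 2.91. MKKS, a chaperonin-like gene of Bardet-Biedl syndrome, had a fold of 6.55 at a position that lies in other gene spans too. CCT6B, the testis paralog of CCT6A, and CCT8L2 had neither peak nor summit.

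Among 24 genes of TRiC clients, 13 had a peak and 13 a summit, with 8 in both, beside 21.3%, 9.4% and 8.07% of all protein-coding genes. By fold they were led by RPTOR, the mTORC1 scaffold (13.6), STAT3, a transcription factor (10.2), TUBB6, a beta-tubulin (8.53), and GNB1, a G protein beta subunit (6.71). By summit they were led by ACTB (127) and ACTG1 (97.3), the cytoplasmic actins, then TUBB4B (54.7) and TUBB6 (48.9). ACTG1, TUBB4B, TUBB, TUBA1B and TUBA1C had summits without a MetDiff peak, the reverse of CCT2. Some peaks of TUBB6 also lie in the span of AFG3L2. Actin and tubulin genes have near-identical copies, so reads may be shared among them.

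Of 11 HSP70 and HSP90 partners, 5 had a peak and 5 a summit (45.5% each), beside 21.3% and 9.4% of all protein-coding genes. HSPH1, a nucleotide exchange factor of HSP70, had a fold of 14.9 and HSF1, the heat shock transcription factor, 13.8. DNAJB1, an HSP40 cochaperone, had 6.0 and the HSP70 gene HSPA1A 4.71. The strongest summits were those of HSP90AB1 (75.3), HSPA8 (28.6), HSPH1 (22.9) and DNAJB1 (22.6). Rows of DNAJB1 also lie in the span of TECR. HSPA1A has a near-identical copy in HSPA1B, so its peak is uncertain. The 3′ peak of TCP1 had a higher fold than any peak in these 4 lists. The median best fold was 3.82 over the 6 TRiC genes with a peak. Among genes with a peak it was 5.49 over clients, 6.0 over partners, 7.5 over cochaperones and 4.73 over relatives. Over all 4515 gene IDs of the MetDiff list the median best fold was 6.19. The medians of the gene lists rest on few genes and were not tested.

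**Figure D5:**
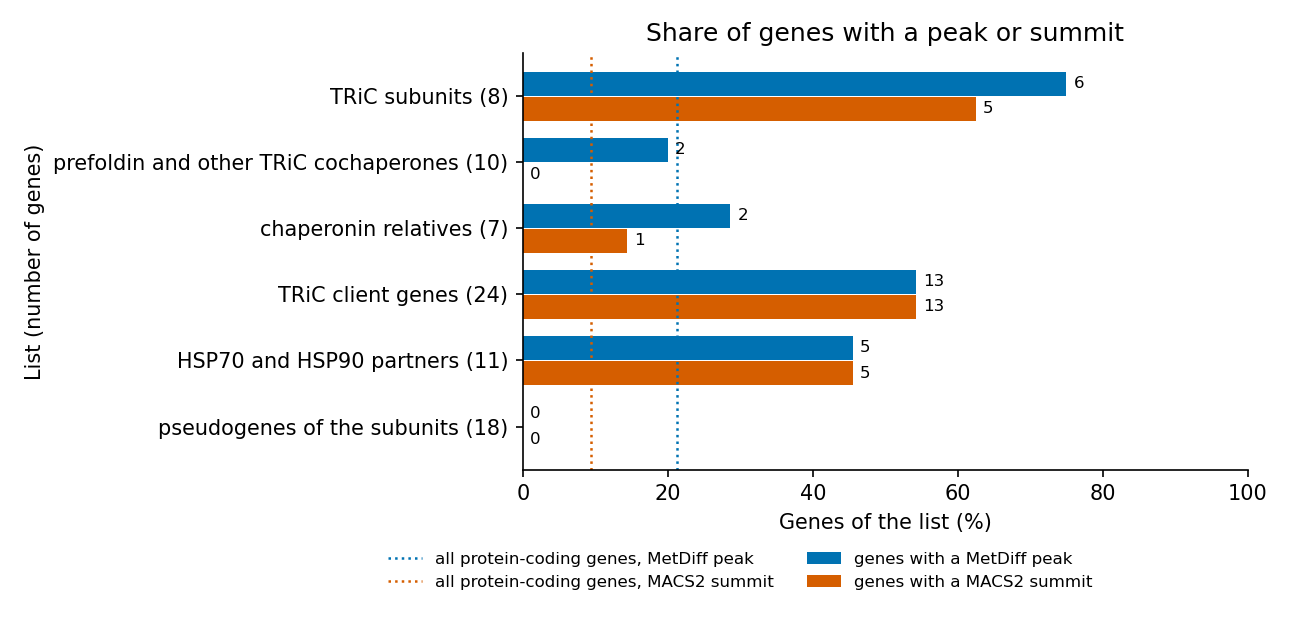
Bars give the share of genes in each list with at least 1 MetDiff peak (blue) or MACS2 summit (orange) inside the span, in percent, with the number of such genes at the bar's end; dotted lines mark all 20052 protein-coding genes (21.3% and 9.4%). TRiC subunits reach 6 and 5 of 8, clients 13 and 13 of 24, cochaperones 2 and 0 of 10, and the pseudogenes of the subunits 0 of 18. The dotted lines are no background for the pseudogenes, for which no share over all pseudogenes was computed.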

How the data were processed

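The data were 2 header-less peak lists deposited for a series of 12 libraries (4 groups of 3, grouped by title). Which of the libraries entered each list is not stated. Per the submitters' processing notes, tools included STAR 2.7.1, MACS2 2.2.5 and others with GRCh38, with no role or order stated. For pooling of replicates and for peak calling settings, the sources used here say nothing. In the deposited MACS2 list each 1-base summit has a −log10 value, taken as of a q-value (minimum 1.35). The deposited MetDiff list gives exon blocks, a p-value, the log10 of an FDR (at most 0.05) and a ratio, taken as fold of IP over input.

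With Python 3.11.15 and pandas 2.3.3, rows were assigned to RefSeq spans (GRCh38.p14) by position, counted from 1. Gene strand came from the RefSeq promoter table, or for CCT6A from its MetDiff row. The RefSeq table was not used for exons, and the bases under the peaks are not shown because no genome sequence was used here. Assignment and signed distances were tested on simulated positions. All 8 subunits are named, with any pseudogene that had a row, genes sharing a row, and of each related list the 4 members with the highest fold and −log10 q; other genes named were chosen after their values were seen. The subunits and lists were chosen with earlier results of these data known. No test was run, as the lists hold no replicate values.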

Additional observations from a re-analysis of the deposited data

How the results depend on the processing

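The lists give no replicate values, so leaving out single libraries could not be done. No paired analysis was possible because no value of either list belongs to a single library or replicate number. At FDR under 0.01, all 7 TRiC peaks were kept and 20.3% of protein-coding genes had a peak. With summits of −log10 q of at least 5, all 10 TRiC summits were kept and 8.87% of genes had a summit. Counting peaks that overlap a span by at least 1 base added none to the subunits. Counting only positions in a sole gene span removed the CCT4 peak and summit, which COMMD1 shares. That left 5 subunits with a peak and 4 with a summit, raised the median fold from 3.12 to 3.97, and lowered the background to 18.2% for peaks and 8.2% for summits. Counting summits within 150 bases of a block, in place of inside it, raised the number at a TRiC block from 1 to 6. Over the whole list the same change raised the share of summits at a block from 17.7% to 63.6%. Restricting MetDiff rows to the strand of the gene kept all 7 TRiC peaks. For CCT6A that strand came from its own row, so its peak could not fail, and summits carry no strand. The unknown depth limits what the empty CCT3 and CCT8 can show.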
